A study of Mus musculus with 23 samples.

Results

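The study's normalized expression table holds 18 of the 23 libraries in its count table, and the comparison described here is the effect of fibroblast growth factor 1 (FGF1) among the 5 libraries that the normalized table does not hold. All 5 were made from mouse retinal organoids at differentiation day 32. Of these, 2 received FGF1, which was added at 200 ng/ml from day 26: replicate 3 of the bovine serum albumin (BSA) medium with FGF1 and replicate 3 of the linoleic acid (LA) medium with FGF1. The other 3 received no FGF1: replicate 1 of the BSA medium, replicate 1 of the LA medium and replicate 1 of the docosahexaenoic acid (DHA) medium. LA and DHA were given from day 10, bound to BSA. DHA has a library only on the side without FGF1, so the 2 sides differ in their media as well as in FGF1.

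By the labels, all organoids came from 1 clone of induced pluripotent stem cells, reprogrammed from fibroblasts of wild-type mouse embryos that carry Nrl-GFP, a reporter of rod photoreceptors, with inducible lentiviral Oct3/4, Sox2, Klf4 and c-Myc. Neural retina was dissected from intact organoids, and all 5 cultures shared the base medium with taurine, 9-cis retinal and insulin-like growth factor 1, and later serum. The libraries are polyadenylated, strand-specific RNA-seq. The labels call the libraries biological replicates but do not say how the cultures were separated in time, so p-values here measure the spread among these libraries, which the labels trace to 1 clone.

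FGF1 binds all FGF receptor tyrosine kinases and, through the adaptor FRS2, signals to the RAS-ERK and the PI3K-AKT cascades. Cells that receive the signal usually raise a set of early targets: the ETS factors Etv1, Etv4 and Etv5, the phosphatases Dusp4, Dusp5 and Dusp6, and the Sprouty and Spred inhibitors, which damp the signal in turn. In the retina FGF signals act on Müller glia, the ciliary margin and the survival of photoreceptors. The question here is which of these genes, and which cell type genes, differ between organoids with and without FGF1 when all the libraries compared come from the set that was left out of the normalized table.

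The 5 libraries hold 10410656 to 11888224 estimated counts and 22530 to 24062 genes with a count. Levels are given as CPM, counts relative to library size, after scaling by the trimmed mean of M values. Retinal genes were present in all of them: the photoreceptor factor Crx had 1125 and 1028 CPM with FGF1, against 1198, 1176 and 1385 CPM without it, and the rod factor Nrl had 569 and 528 CPM with FGF1, against 747, 606 and 523 CPM without it. Mitochondrially encoded genes took 11.9% and 11.7% of the counts with FGF1, against 8.25%, 12.5% and 9.38% without it. Over genes, log2 CPM changed with the GC content of the transcripts, for each 10 points of GC, by -1.33 and -1.55 with FGF1, against -0.71, -1.50 and -1.59 without it, so that BSA replicate 1 had the flattest slope. The 6 kept day 32 libraries with FGF1 had more counts (at least 16029580), 3.02% to 3.87% mitochondrial counts and slopes of 0.25 to 0.43, while the 6 kept day 32 libraries without FGF1 had 5.55% to 11.4% and slopes of -1.67 to -0.53. Among the kept libraries FGF1 therefore goes with depth and GC slope, and their effects cannot be told apart; among the 5 left-out libraries the 2 sides overlap in depth, mitochondrial share and GC slope.

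The left-out libraries also stood apart from the kept day 32 libraries in Y-linked genes and at the imprinted Dlk1-Meg3 locus, although the labels name a single clone. Of 8 Y-linked genes, 2 did not overlap between the sets, in CPM scaled over the 17 day 32 libraries. Eif2s3y, a translation factor gene, had 29.1 to 67.5 CPM in the 5 left-out libraries, against 0.0481 to 0.762 CPM in the 12 kept ones. Ddx3y, an RNA helicase gene, had 9.31 to 26.7 CPM in the 5 left-out libraries, against 0.181 to 1.21 CPM in the 12 kept ones. Uty and Kdm5d overlapped, and Usp9y, Zfy1 and Zfy2 were at 0 in every library. Summed over the list, the level was 57.0 to 108 CPM in the 5 left-out libraries, against 2.70 to 10.3 CPM in the 12 kept ones. The X-linked gene Xist, added after seeing the data, overlapped between the sets. It had 4.50 to 9.55 CPM in the 5 left-out libraries, against 0.731 to 14.4 CPM in the 12 kept ones.

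At the Dlk1-Meg3 locus 3 of 7 genes did not overlap between the sets. The share of all genes that did not overlap between the sets was not counted. This count and that of the Y-linked genes therefore have no background to be read against. Meg3, a maternally expressed RNA that can be silenced in pluripotent clones, had 135 to 428 CPM in the 5 left-out libraries, against 0.394 to 7.31 CPM in the 12 kept ones, and Rian, another maternal RNA of the locus, had 38.0 to 97.0 CPM in the 5 left-out libraries, against 0.169 to 1.41 CPM in the 12 kept ones. The third was Mirg. Rian shares counts with a second copy on a patch scaffold, so its values are uncertain. Within the left-out set the groups overlapped for Eif2s3y, Ddx3y, Meg3 and Rian. The effect of these traits cannot be told apart from that of the library set in any comparison of left-out with kept libraries. Whether the 2 sets descend from the same cells was not tested.

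**Figure D1:**
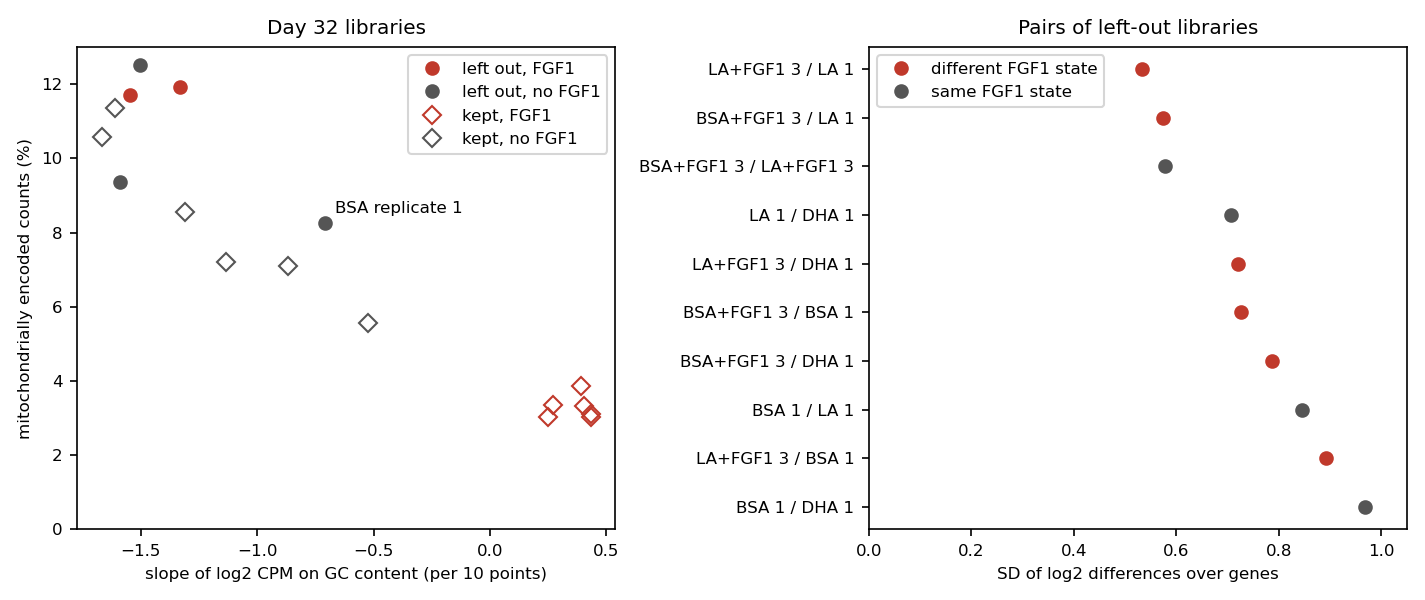
Left: share of counts from mitochondrially encoded genes (%) against the GC slope (change in log2 CPM for 10 points more of GC) for the 17 day 32 libraries, with FGF1 in red, no FGF1 in grey, filled circles for left-out and open diamonds for kept libraries. Right: standard deviation of log2 differences over 14045 genes for each pair of left-out libraries; the pair LA with FGF1 and LA without it is the closest (0.533), and BSA replicate 1 takes part in 4 of the 5 widest pairs.

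No gene passed the test between the left-out libraries with and without FGF1. Of 52143 genes in the table, 16679 had enough counts to be tested, and edgeR's quasi-likelihood test with Benjamini-Hochberg adjustment called 0 (0.00%) at an adjusted p under 0.05; the smallest adjusted p was 1.00. At an unadjusted p under 0.05 there were 469 genes (2.81%), of which 204 had higher values with FGF1 (1.22%) and 265 lower values (1.59%). On the same counts DESeq2 called 11 genes, 6 of them higher and 5 lower with FGF1, and limma voom called 0. The quasi-likelihood count was 23 with no filter on low counts, 13 with medium as a term, 5 without LA with FGF1, 1 without BSA replicate 1 and 0 without any other single library. With medium as a term, a gene's own spread comes only from how its BSA and LA differences depart from each other. DHA, which has no library with FGF1, adds nothing to it. Both FGF1 libraries lay above all 3 others for 1524 genes (9.14%) and below all 3 for 1507 (9.04%). The median log2 difference, FGF1 minus none, was -0.05, and 44.5% of genes were above 0.

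The intervals show what size of change the 5 libraries allow. The median half-width of the 95% interval was 0.89 on the log2 scale, and the whole interval lay within 2-fold in either direction for 6389 genes (38.3%). Among the 5696 genes with an average log2 CPM of 5 or more the half-width was 0.58, and 4686 intervals (82.3%) lay within 2-fold. For these abundant genes the SD of the log2 differences over genes was 0.30 in the left-out libraries and 0.92 in the kept libraries.

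Libraries did not group by FGF1. The 2 FGF1 libraries differed from each other with an SD of log2 differences over 14045 genes of 0.577, while LA with FGF1 differed from LA without it with an SD of 0.533 and BSA with FGF1 from LA without it with 0.573. Thus 2 pairs that differ in FGF1 were closer than the pair that shares it. The widest pairs were BSA and DHA replicate 1, both without FGF1 (0.968), and LA with FGF1 against BSA replicate 1 (0.892). No pair agreed within sampling noise, since the smallest chi-square per degree of freedom was 12.7.

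Each FGF1 library can also be set against the library of its own medium, with 1 library a side and no test. In the BSA medium the SD of the log2 differences over genes was 0.725 and in the LA medium 0.533. Of 14045 genes with an average log2 CPM of 1 or more, 52 were at least 2-fold higher with FGF1 in both media and 103 at least 2-fold lower in both, while 35 were higher in BSA and lower in LA and 53 the reverse. Across genes the differences in the 2 media had a Pearson correlation of 0.10, a description over genes, which are not replicates.

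The FGF and ERK feedback genes lay on both sides of 0. Of 27 genes on the list 26 were tested, with Egr2 under the filter, and 0 were called; 14 had higher values with FGF1 and 12 lower, with a median log2 difference of 0.17 against -0.05 over all genes. Both FGF1 libraries lay above all 3 others for 5 of the 26 and below all 3 for 4, where 9.14% and 9.04% of all genes did so. Across the 16 alternative settings the median ran from -0.02 to 0.31, and it was 0.31 without BSA replicate 1, -0.02 without DHA replicate 1 and -0.01 with medium as a term. Summed over the list, the level was 737 and 722 with FGF1, against 619.9, 657 and 508 without it, in CPM.

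Among the ETS factors, which carry FGF signals to transcription, Etv1 (GRCm38 chr12:38779380-38870484) had 59.8 and 68.6 CPM with FGF1, against 34.0, 49.0 and 24.1 CPM without it. Both FGF1 libraries were above all 3 others, and the log2 difference was 0.85 (95% interval 0.17 to 1.52), with an adjusted p of 1.00 in edgeR's quasi-likelihood test. Etv5 had 58.0 and 42.7 CPM with FGF1, against 45.0, 39.2 and 32.3 CPM without it. Here LA with FGF1 fell below BSA without it, so the groups overlapped, with a log2 difference of 0.37 (95% interval -0.22 to 0.97). Etv4 had 1.82 and 2.76 CPM with FGF1, against 3.04, 1.75 and 2.27 CPM without it, again with overlap, and a log2 difference of -0.04 (95% interval -1.38 to 1.3).

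Phosphatases that inactivate ERK had higher means with FGF1 in 3 of 4. Dusp6, the ERK-specific phosphatase, had 58.7 and 56.8 CPM with FGF1, against 41.2, 57.1 and 38.0 CPM without it. LA without FGF1 lay between the 2 FGF1 libraries, and the log2 difference was 0.35 (95% interval -0.23 to 0.92). Dusp4, a nuclear ERK phosphatase, had 24.2 and 21.4 CPM with FGF1, against 16.1, 20.5 and 14.7 CPM without it, without overlap and with a log2 difference of 0.42 (95% interval -0.27 to 1.11). Dusp5 and Dusp14 overlapped, with log2 differences of 0.24 and -0.15.

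The Sprouty and Spred inhibitors of RAS-ERK signalling were also split. Spry2 had 34.7 and 34.3 CPM with FGF1, against 32.4, 30.9 and 28.2 CPM without it. The FGF1 libraries were both highest, by a log2 difference of 0.18 (95% interval -0.39 to 0.75). Spry4 had 13.6 and 12.9 CPM with FGF1, against 14.8, 11.6 and 5.13 CPM without it, and DHA replicate 1 alone was low. Il17rd (Sef), a membrane inhibitor of FGF signalling, had 12.0 and 11.9 CPM with FGF1, against 13.0, 12.6 and 12.9 CPM without it, which placed both FGF1 libraries below the 3 others by a log2 difference of -0.11. Spred1 had 163 and 203 CPM with FGF1, against 106, 176 and 125 CPM without it, with overlap and a log2 difference of 0.43 (95% interval -0.16 to 1.02). Spry1, Spred2 and Spred3 had log2 differences of -0.07, 0.35 and -0.34, and for Spred3 both FGF1 libraries were lowest.

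Immediate early and later targets of ERK gave no common direction. Egr1, an immediate early zinc finger factor, had 20.2 and 15.7 CPM with FGF1, against 31.1, 17.6 and 18.8 CPM without it, with BSA replicate 1 highest. Fos had 9.01 and 6.76 CPM with FGF1, against 16.8, 4.59 and 6.51 CPM without it, and again BSA replicate 1 stood above the rest. Ccnd1, the cyclin D1 gene, had 125 and 96.9 CPM with FGF1, against 94.7, 99.4 and 58.7 CPM without it, with LA without FGF1 above LA with it. Areg, an EGF receptor ligand, was low in every library, at 1.39 and 1.52 CPM with FGF1, against 0.519, 0.367 and 0.296 CPM without it; the FGF1 libraries were both above the others, with a log2 difference of 1.84 (95% interval 0.07 to 3.61). Hmga2, an architectural chromatin protein, had 8.57 and 6.57 CPM with FGF1, against 3.56, 3.40 and 5.62 CPM without it, without overlap, and its interval included 0 (log2 difference 0.85, 95% interval -0.20 to 1.90). Ier3, Myc, Fosl1, Phlda1, Rgs16, Errfi1 and Lrig3 had log2 differences between -0.66 and 0.32. For Fosl1 and Errfi1, at -0.66 and -0.10, both FGF1 libraries were below all the others.

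**Figure D2:**
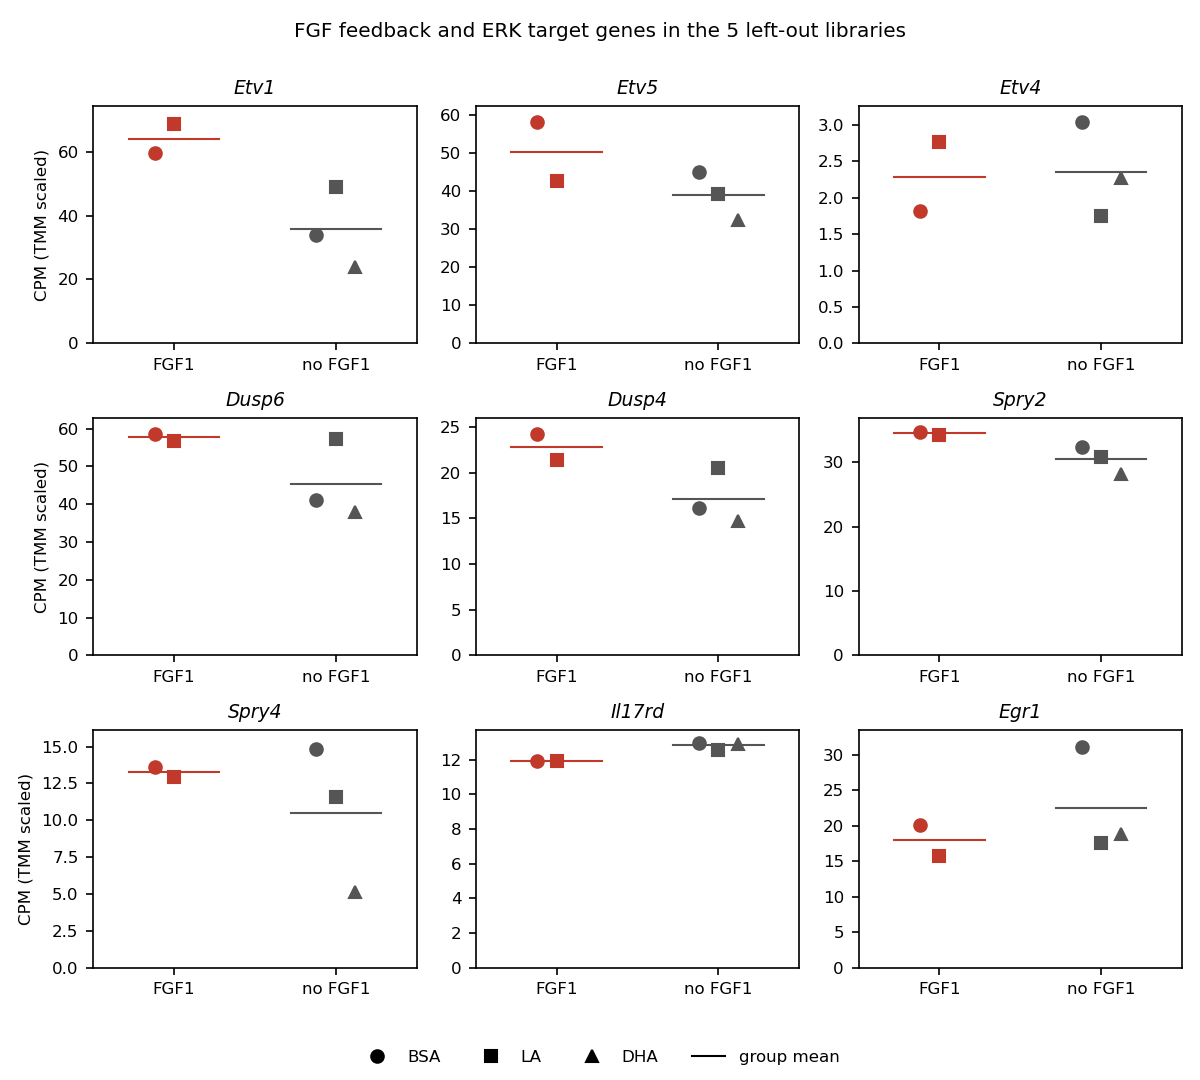
CPM (linear axis, scaled by the trimmed mean of M values) of 9 FGF feedback and ERK target genes in each of the 5 left-out libraries, FGF1 in red and no FGF1 in grey, with symbols for the medium and lines for group means. In Etv1, Dusp4 and Spry2 both FGF1 libraries are highest and in Il17rd both are lowest, while Dusp6, Etv4, Etv5, Spry4 and Egr1 overlap between groups.

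Genes of the FGF receptor and ligand list were detected but not called. The list also holds intracellular FGF homologues (Fgf11, Fgf12, Fgf13, Fgf14), the adaptor genes Frs2 and Frs3, and Flrt2, Flrt3 and Kl. Of 27 genes 19 were tested. With FGF1, 13 had lower and 6 higher values, and the median log2 difference was -0.13. All of these additional members except Flrt2 were among the lower. Of the other members, Fgf1, Fgf7, Fgf9, Fgf15 and Fgfr2 were higher, and Fgf2, Fgf10, Fgfr1, Fgfr3 and Fgfrl1 lower. Fgf11, an intracellular FGF homologue that does not act as a secreted ligand, was the member with the smallest p, at 156 and 156 CPM with FGF1, against 251, 165 and 357 CPM without it, both FGF1 libraries being lowest by a log2 difference of -0.72 (95% interval -1.42 to -0.03). Fgfr1 had 11 and 16.9 CPM with FGF1, against 22.5, 11.5 and 11.8 CPM without it, with overlap. Fgfr2 had 9.61 and 7.33 CPM with FGF1, against 8.68, 4.96 and 1.38 CPM without it, where the low value belongs to DHA replicate 1.

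Fgfr3 had 2.42 and 1.24 CPM with FGF1, against 8.08, 1.29 and 1.78 CPM without it, so that its log2 difference of -1.02 (95% interval -2.87 to 0.82) comes with 1 high library, BSA replicate 1. Without that library it was 0.27. The endogenous Fgf1 gene, whose transcripts the added protein does not contribute to, had 4.50 and 5.33 CPM with FGF1, against 2.67, 3.86 and 2.56 CPM without it. Its values did not overlap and its interval included 0 (log2 difference 0.70, 95% interval -0.44 to 1.83). Fgf2 had 117 and 138 CPM with FGF1, against 109, 177 and 121 CPM without it, and Fgf9 had 24.0 and 29.1 CPM with FGF1, against 27.0, 21.3 and 24.9 CPM without it, both with overlap. The adaptor gene Frs2 had 68.4 and 62.7 CPM with FGF1, against 70.6, 59.8 and 85.0 CPM without it, also with overlap.

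Of 25 genes for kinases, adaptors and GTPases of the ERK and AKT cascades, 25 were tested, 12 above and 13 below 0, with a median log2 difference of -0.01; for 20 of them the interval lay within 2-fold. Rps6ka3, which encodes the ERK-activated kinase RSK2, had 198 and 224 CPM with FGF1, against 95.2, 148 and 173 CPM without it, without overlap (log2 difference 0.60, 95% interval -0.0011 to 1.21). Akt1 had 12.0 and 10.2 CPM with FGF1, against 51.8, 9.00 and 8.09 CPM without it. Only BSA replicate 1 stood apart, and without it the log2 difference was 0.38 in place of -1.06.

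Genes of the extracellular matrix and fibroblasts had the highest median of the lists of 10 or more tested genes. Of 21 genes 19 were tested and 0 called by edgeR's quasi-likelihood test; 16 had higher values with FGF1, 11 of them without overlap (9.14% of all genes), 9 at an unadjusted p under 0.05 (1.22% of all genes), and 3 had lower values. The median log2 difference was 0.99, and it ran from 0.85 to 1.35 over the 16 alternative settings. The summed level of all 21 members was 460.3 and 666 with FGF1, against 269, 179 and 201 without it, in CPM, so the groups did not overlap. Of the mesenchymal factors Twist1 and Twist2, neither of which was tested, 1 had no count in any of the 5 libraries. In bulk RNA, more cells of a type and more RNA per cell cannot be told apart, and whether a different number of matrix-forming cells was dissected with the retina was not tested.

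Col3a1, a fibrillar collagen gene (GRCm38 chr1:45311538-45349706), had the smallest p of the genes with higher values that the naming rule covers, at 101 and 154 CPM with FGF1, against 45.5, 14.0 and 20.7 CPM without it. Its mean was 127 ± 37.3 CPM with FGF1 (SD, n = 2) and 26.7 ± 16.6 CPM without it (SD, n = 3). The log2 difference was 2.25 (95% interval 1.29 to 3.20) with an adjusted p of 1.00 in edgeR's quasi-likelihood test, 1.15 within the BSA medium and 3.44 within the LA medium. It was called by DESeq2 (adjusted p 0.0023), with no filter on low counts and without BSA replicate 1 (adjusted p 0.0158 in edgeR's quasi-likelihood test), and by no other alternative. The gene varied widely in the kept libraries too, from 2.79 to 111 CPM with FGF1 and from 4.34 to 68.5 CPM without it, and in the fit of all 17 day 32 libraries the left-out difference of 2.27 had an adjusted p of 0.788.

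Other matrix genes lay on the same side. Fn1, the fibronectin gene, had 56.5 and 152 CPM with FGF1, against 41.2, 24.8 and 26.7 CPM without it, and LA with FGF1 was the high library. Without that library its log2 difference was 0.88 in place of 1.75. Col14a1, a fibril-associated collagen gene, had 13.9 and 18.8 CPM with FGF1, against 4.08, 1.75 and 3.85 CPM without it (log2 difference 2.33, 95% interval 1.3 to 3.36). The small proteoglycan genes were highest in BSA with FGF1: Lum had 19.1 and 10.6 CPM with FGF1, against 4.38, 3.67 and 2.56 CPM without it. Dcn had 31.3 and 15.6 CPM with FGF1, against 9.64, 7.90 and 6.21 CPM without it. None of these 4 genes overlapped between the groups. The naming rule required this of Fn1, Col14a1 and Lum, as of Col3a1 and Igf2, but not of Dcn. Fn1, Col14a1 and Lum were called by DESeq2, with adjusted p of 0.0435, 0.012 and 0.0464, and by edgeR with no filter on low counts.

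Lox, the collagen cross-linking enzyme, had 31.0 and 24.1 CPM with FGF1, against 13.3, 12.3 and 7.30 CPM without it, and Col1a2 had 32.5 and 25.1 CPM with FGF1, against 16.7, 7.07 and 5.43 CPM without it, both without overlap. Pdgfra, the receptor that marks many fibroblasts, had 32.5 and 61.9 CPM with FGF1, against 24.8, 27.9 and 18.3 CPM without it. Col1a1 had 10.6 and 7.81 CPM with FGF1, against 13.9, 2.85 and 1.28 CPM without it, and Postn had 69.9 and 129 CPM with FGF1, against 18.3, 23.8 and 78.0 CPM without it; in these the groups overlapped. With medium as a term, which sets BSA against BSA and LA against LA, Postn was called (log2 difference 2.18, adjusted p 0.000208 in edgeR's quasi-likelihood test). Its own spread in that fit comes only from how the BSA and LA differences depart from each other. Markers of contractile cells did not follow: Acta2 had 1.39 and 0.190 CPM with FGF1, against 2.60, 3.40 and 0.888 CPM without it, and Tagln had 2.25 and 2.09 CPM with FGF1, against 2.45, 3.58 and 0.888 CPM without it. Igf2, the imprinted gene of insulin-like growth factor 2, had 184 and 418 CPM with FGF1, against 109, 118 and 59.1 CPM without it, without overlap and with a log2 difference of 1.65 (95% interval 0.83 to 2.48). Without LA with FGF1 it was 0.95, and Igf2 was called by DESeq2 (adjusted p 0.0435) and by edgeR with no filter on low counts.

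**Figure D3:**
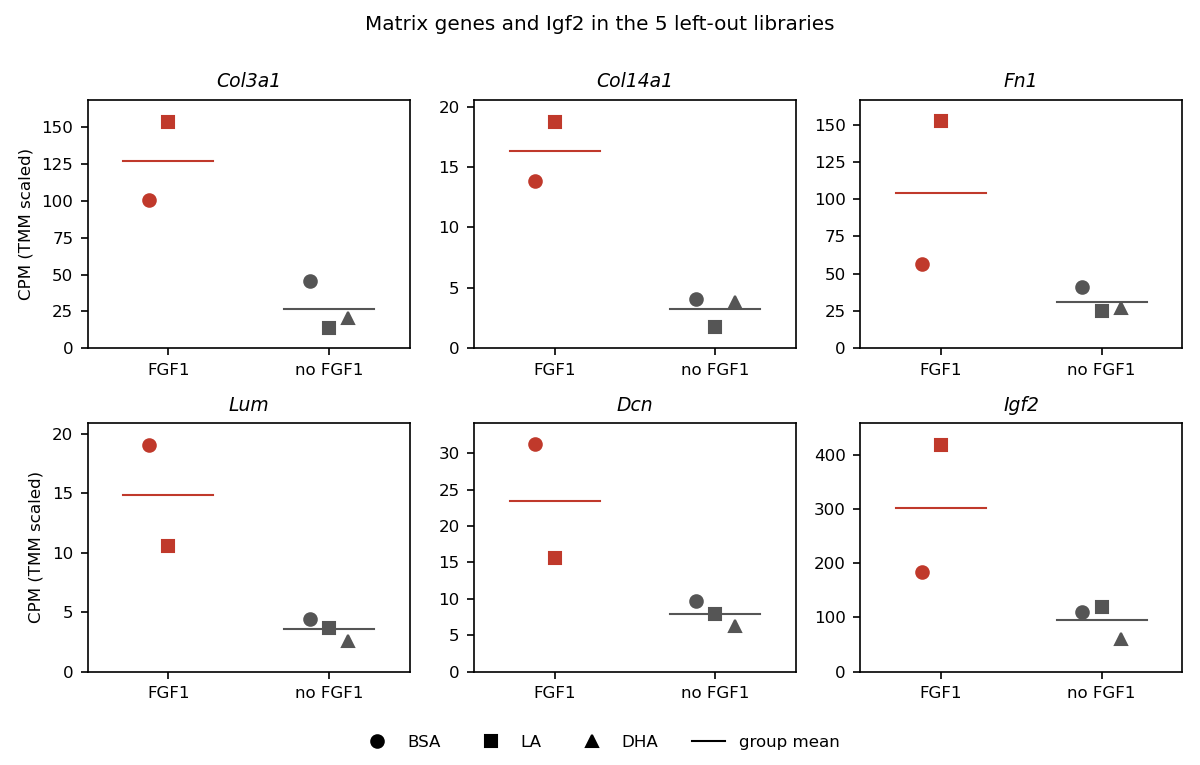
CPM (linear axis) of 5 matrix genes and Igf2 in each left-out library, FGF1 in red and no FGF1 in grey, with symbols for the medium and lines for group means. For each of the 6 genes both FGF1 libraries lie above the 3 others, which the naming rule required of all but Dcn. LA with FGF1 is the highest library for Col3a1, Col14a1, Fn1 and Igf2, and BSA with FGF1 for Lum and Dcn.

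The remaining genes that the naming rule took as those with the smallest p, none of them called by edgeR's quasi-likelihood test on the 5 libraries, were 1 with higher and 6 with lower values with FGF1. Of these 7, other fits called 4: Rhox4d with DESeq2, with no filter on low counts and with medium as a term, Rab40c with DESeq2, Tep1 with DESeq2 and with no filter, and Mms19 with medium as a term. Pde3b, a cyclic nucleotide phosphodiesterase, had 79.9 and 89.0 CPM with FGF1, against 36.3, 39.1 and 49.1 CPM without it, with a log2 difference of 1.03 (95% interval 0.50 to 1.55). Rhox4d, an X-linked homeobox gene, was at 0 in both FGF1 libraries, against 2.45, 2.66 and 4.44 CPM without FGF1. It has near-identical Rhox4 copies among which the estimated counts can be split, so this value is uncertain.

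Rab40c, of the Rab GTPase family, had 5.11 and 4.19 CPM with FGF1, against 22.3, 13.1 and 13.4 CPM without it. Tep1, a telomerase-associated protein, had 4.85 and 4.86 CPM with FGF1, against 13.1, 13.6 and 28.3 CPM without it. Mms19, of the cytosolic iron-sulfur cluster assembly, had 32.0 and 30.0 CPM with FGF1, against 96.4, 62.4 and 55.9 CPM without it. Rab40c, Tep1 and Mms19 had log2 differences of -1.81, -1.91 and -1.21. Their groups stood apart by selection, since the naming rule took only genes without overlap. Arid3b, a DNA-binding protein, had 9.01 and 9.52 CPM with FGF1, against 25.1, 19.6 and 26.7 CPM without it, with a log2 difference of -1.36 (95% interval -2.10 to -0.62). Trpm1, the transduction channel of ON bipolar cells that pigment cells also express, had 16.8 and 16.2 CPM with FGF1, against 31.2, 37.7 and 41.6 CPM without it, with a log2 difference of -1.16 (95% interval -1.79 to -0.52).

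Photoreceptor genes lay below 0 more often than not, by small amounts. Of 27 genes that rods and cones share 26 were tested: 26 had lower values with FGF1, where 44.5% of all genes had higher ones, and for 14 both FGF1 libraries were lowest (9.04% of all genes). None was called, and the median log2 difference was -0.27, -0.30 to -0.24 over the alternatives. Of 21 rod genes 19 were below 0, with a median of -0.41, or -0.25 without BSA replicate 1. In the kept libraries the rod list had a median of 0.46 and the shared list one of -0.05. Summed over the shared list, the level was 15847 and 15336 with FGF1, against 16205, 17979 and 19387 without it, in CPM.

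Gnat1, rod transducin, had 12.6 and 12.1 CPM with FGF1, against 32.0, 16.4 and 17.1 CPM without it, without overlap. Abca4, the retinoid flippase of outer segment discs, had 182 and 188 CPM with FGF1, against 328, 244 and 346 CPM without it. Both FGF1 libraries were lowest, with a log2 difference of -0.73 (95% interval -1.28 to -0.18). Tulp1, a protein trafficking factor of photoreceptors, had 108 and 75.5 CPM with FGF1, against 209.6, 108 and 139 CPM without it (log2 difference -0.73, 95% interval -1.42 to -0.05). Here BSA with FGF1 and LA without it were level. Without BSA replicate 1 the log2 differences of Gnat1, Abca4 and Tulp1 were -0.43, -0.67 and -0.42, in place of -0.82, -0.73 and -0.73. Crx, Otx2 and Nrl, the fate factors, had log2 differences of -0.22, -0.21 and -0.19.

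Cone genes were split. Of 16 genes 13 were tested, 7 above and 6 below 0. For 0 of the 13 were the groups apart, where both FGF1 libraries were highest for 9.14% of all genes and lowest for 9.04%. Opn1sw, the short-wave cone opsin, had 6.49 and 43.2 CPM with FGF1, against 6.16, 10.3 and 12.7 CPM without it, and LA with FGF1 was the only high library; without it the log2 difference was -0.57 in place of 1.36. Pde6c, the cone phosphodiesterase, had 8.66 and 18.8 CPM with FGF1, against 5.12, 6.15 and 8.78 CPM without it, again highest in LA with FGF1. Arr3, cone arrestin, had 5.98 and 7.33 CPM with FGF1, against 3.86, 7.26 and 9.07 CPM without it.

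Genes of inner retinal neurons also had medians below 0. The median log2 difference was -0.19 over 20 bipolar genes, -0.32 over 17 amacrine genes, -0.26 over 10 horizontal cell genes and -0.09 over 17 ganglion cell genes, with 0 called. The bipolar median was -0.02 without DHA replicate 1 and 0.0004 with medium as a term, and the ganglion cell median was 0.04 without LA with FGF1. Grm6, the glutamate receptor of ON bipolar dendrites, had 18.4 and 19.5 CPM with FGF1, against 30.7, 24.2 and 58.7 CPM without it, without overlap (log2 difference -1.0, 95% interval -1.85 to -0.15). Tfap2a, an amacrine fate factor, had 43.6 and 34.3 CPM with FGF1, against 57.0, 49.2 and 73.4 CPM without it, and Onecut1, a horizontal cell factor, had 7.01 and 7.05 CPM with FGF1, against 13.5, 16.3 and 14.5 CPM without it. In these 3 genes both FGF1 libraries were lowest. Of 21 photoreceptor synapse genes 16 were below 0, with a median of -0.22, and of 26 cilium genes 20, with a median of -0.14.

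Müller glia, the radial glia of the retina, and the ciliary margin gave medians slightly above 0. Of 19 Müller glia genes tested 14 had higher values with FGF1 (median log2 difference 0.14, -0.09 to 0.26 over the alternatives, the lowest without DHA replicate 1). Vim, the vimentin gene, had 330.0 and 345 CPM with FGF1, against 291, 249.6 and 129 CPM without it, without overlap. Sox2 had 39.7 and 42.6 CPM with FGF1, against 20.2, 36.8 and 32.6 CPM without it, also without overlap, whereas Apoe had 19.9 and 11.9 CPM with FGF1, against 50.1, 15.0 and 8.19 CPM without it and Glul, glutamine synthetase, had 201 and 161 CPM with FGF1, against 271, 182 and 149 CPM without it, both with overlap. Gfap, the gliosis marker, had 15.2 and 49.3 CPM with FGF1, against 36.1, 32.2 and 12.3 CPM without it. DHA replicate 1 had the lowest summed level of the glial list, which was 3030.0 and 3194 with FGF1, against 3022, 2984 and 2075 without it, in CPM.

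Of 18 ciliary margin genes 12 were above 0, with a median of 0.19. Ccnd2 had 162 and 153 CPM with FGF1, against 98.1, 132 and 53.2 CPM without it, without overlap (log2 difference 0.73, 95% interval 0.01 to 1.46). Col9a1 had 68.9 and 111 CPM with FGF1, against 55.0, 63.0 and 36.4 CPM without it, also without overlap. Of 25 cell cycle genes 13 were above 0 (median 0.04, -0.18 to 0.31 over the alternatives), and of 21 progenitor genes 6 (median -0.15, 0.05 without BSA replicate 1). Rax, a retinal progenitor factor also used by photoreceptors, had 5.89 and 3.05 CPM with FGF1, against 13.9, 6.89 and 7.60 CPM without it. It was the 1 progenitor gene with both FGF1 libraries lowest (9.04% of all genes). Both were highest for 2, Neurog2 and Sox2 (9.14% of all genes), with log2 differences of 0.43 and 0.46. Of 15 pigment epithelium genes tested 10 were below 0 (median -0.18), and Ttr, the transthyretin gene, ranged over 6.58 and 1.43 CPM with FGF1, against 24.7, 22.4 and 0.395 CPM without it, as widely within as between the groups. With medium as a term Ttr was called, at a log2 difference of -2.81 (adjusted p 0.0307 in edgeR's quasi-likelihood test). There too, the gene's own spread comes only from how the BSA and LA differences depart from each other.

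Glycolysis and hypoxia genes were below 0 in 24 of 26, with a median log2 difference of -0.36 and 0 called. This rests on BSA replicate 1: without it the median was -0.04 and 12 of 26 were above 0. Pfkl, liver-type phosphofructokinase, had 34.4 and 29.9 CPM with FGF1, against 146, 42.3 and 42.1 CPM without it. Gapdh had 817 and 544 CPM with FGF1, against 1795, 649 and 589 CPM without it, and the glucose transporter gene Slc2a1 had 168 and 87.0 CPM with FGF1, against 391, 144 and 137 CPM without it. In each of these 3 genes BSA replicate 1 was the highest library.

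The 15 mitochondrially encoded genes were 15 of 15 above 0, with a median of 0.24, and 0 were called; without BSA replicate 1 the median was 0.06 with 10 of 15 above 0. mt-Co1, a subunit of complex IV, had 41052 and 48107 CPM with FGF1, against 26987, 48454 and 35923 CPM without it, so LA without FGF1 had the highest level. mt-Co3 had 11396 and 12282 CPM with FGF1, against 6764, 10302 and 8587 CPM without it. It was the only one of the 15 without overlap, where both FGF1 libraries were highest for 9.14% of all genes.

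Lipid genes did not follow FGF1 as a group. Of 21 genes of fatty acid oxidation and PPAR targets tested, 14 were above 0 (median 0.14, -0.06 to 0.40 over the alternatives); of 19 lipogenesis genes 9 (median -0.02, -0.06 to 0.17 over the alternatives); and of 23 cholesterol synthesis genes 6 (median -0.14, -0.0047 without BSA replicate 1). Fabp7, a fatty acid binding protein of glia and progenitors, had 1237 and 1069 CPM with FGF1, against 635, 854 and 767 CPM without it, without overlap (log2 difference 0.62, 95% interval 0.04 to 1.19). Hadhb, of mitochondrial beta-oxidation, had 109 and 103 CPM with FGF1, against 64.2, 87.1 and 47.0 CPM without it, and Elovl5, an elongase, had 147 and 153 CPM with FGF1, against 89.8, 124 and 96.3 CPM without it, both highest in the FGF1 libraries. Acadm, another beta-oxidation enzyme, lay the other way, at 44.7 and 47.9 CPM with FGF1, against 70.2, 65.2 and 66.3 CPM without it.

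Stress and signalling lists had medians near 0: 0.05 for the unfolded protein and amino acid response (22 genes), -0.07 for immediate early and heat shock genes (22), 0.05 for gliosis and damage genes (19), 0.21 for the BMP and TGF-beta pathways (20), 0.22 for Wnt genes (18) and -0.10 for retinoic acid genes (14). Over the alternatives these medians ran from -0.04 to 0.26, -0.15 to 0.06, -0.17 to 0.22, 0.05 to 0.44, -0.08 to 0.33 and -0.62 to 0.40, in the same order, and all but the BMP and TGF-beta list crossed 0. The retinoic acid median was -0.62 without BSA with FGF1 and 0.40 without BSA replicate 1, and the Wnt median was -0.08 without BSA with FGF1. Nr4a1, an immediate early nuclear receptor, had 21.4 and 15.0 CPM with FGF1, against 26.6, 33.0 and 32.6 CPM without it. Both FGF1 libraries were lowest for 2 of its 22-gene list and highest for 3 (9.04% and 9.14% of all genes). The 3 were Atf3, Nr4a3 and Egr3, with log2 differences of 0.61, 0.77 and 1.45. B2m, the MHC class I light chain gene, had 75.7 and 69.7 CPM with FGF1, against 44.4, 61.4 and 31.4 CPM without it. It was the 1 gliosis and damage gene with both FGF1 libraries highest. Both were lowest for 2 of that list, among them Bax (log2 difference -0.98).

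Other lists describe the libraries. The Y-linked Ddx3y had 23.6 and 17 CPM with FGF1, against 11.3, 18.9 and 8.48 CPM without it, and Meg3 had 222 and 165 CPM with FGF1, against 269, 120.4 and 389.8 CPM without it, both with overlap between the groups. Vascular and immune genes were scarce: 6 of 18 were tested, and Ptprc, the pan-leukocyte marker, had 0.866 and 1.24 CPM with FGF1, against 0.371, 0.184 and 1.18 CPM without it.

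**Figure D4:**
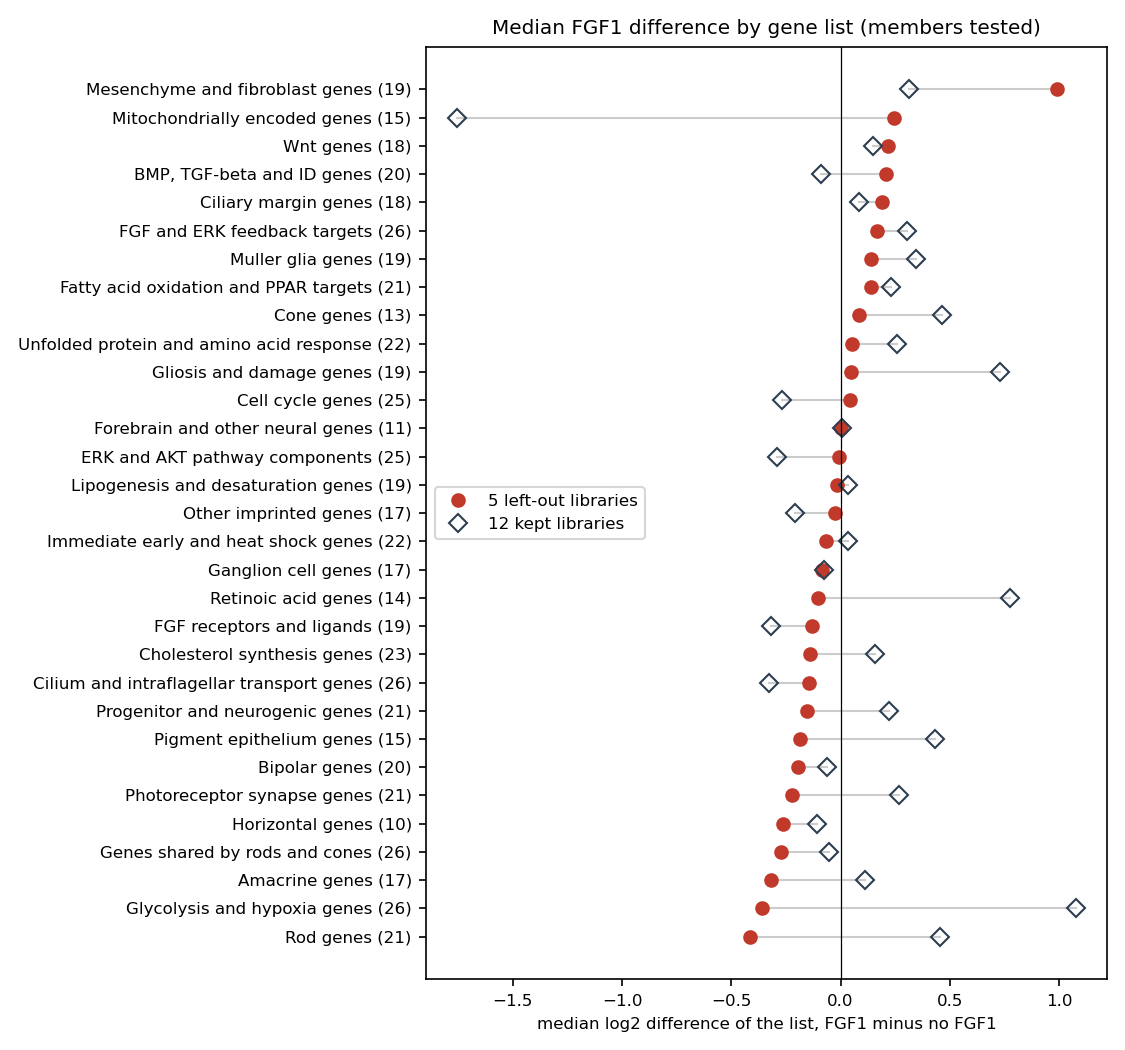
Median log2 difference, FGF1 minus no FGF1, of each gene list with 10 or more members tested, for the 5 left-out libraries (filled circles) and the 12 kept day 32 libraries (open diamonds); the number of members tested is in brackets. The matrix list has the highest left-out median (0.99). Several lists, among them the mitochondrially encoded, glycolysis, rod, pigment epithelium and retinoic acid lists, have medians of opposite sign in the 2 sets of libraries.

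The difference between libraries with and without FGF1 was not the same in the left-out and in the kept libraries. In 1 edgeR quasi-likelihood fit of all 17 day 32 libraries over 19463 genes, the kept contrast (6 libraries with FGF1, 6 without) called 12306 genes (63.2%), 6264 higher (32.2%) and 6042 lower (31.0%) with FGF1. In the same fit the left-out contrast called 0 higher and 1 lower, the ribosomal protein pseudogene Rps27a-ps2, which can share reads with its parent gene. The difference between the contrasts, tested as an interaction, passed for 7968 genes (40.9%), of which 3973 were larger (20.4%) in the left-out libraries and 3995 smaller (20.5%). The interaction called 4547 genes without LA with FGF1. With an offset for GC content the interaction called 3243 genes and the kept contrast 7761, of which 5238 were higher and 2523 lower.

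Of the 6264 genes called higher in the kept libraries, 4628 (73.9%) had lower values with FGF1 in the left-out libraries; their median log2 difference was -0.29 there and 1.48 in the kept libraries. Of the 6042 called lower, 3844 (63.6%) had higher values in the left-out libraries, with medians of 0.10 and -1.0. This opposite direction rests on 1 library: without BSA replicate 1 the shares were 42.7% and 47.6%.

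**Figure D5:**
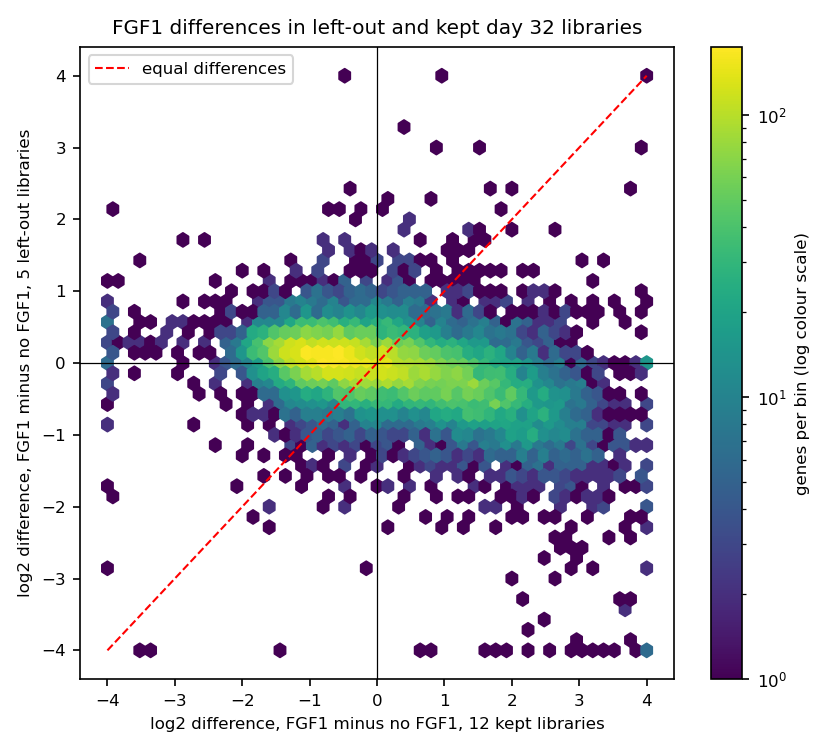
Log2 difference, FGF1 minus no FGF1, in the 5 left-out libraries (vertical) against the 12 kept day 32 libraries (horizontal) for 14800 genes with an average log2 CPM of 1 or more, drawn as counts per bin on a log colour scale; 106 genes beyond 4 in size are drawn at 4. With BSA replicate 1 included, the genes follow the horizontal axis and slope downwards, away from the dashed line of equal differences.

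Some FGF targets differed between the sets, with left-out values taken from the fit of the 5 libraries and kept values and interactions from the fit of 17. Etv4 had a log2 difference of -0.04 in the left-out libraries and 2.80 in the kept libraries, with an interaction of -2.83 (adjusted p 0.00222 in edgeR's quasi-likelihood test). Spred1 lay the other way, at 0.43 in the left-out and -1.38 in the kept libraries (interaction 1.83, adjusted p 7.77e-04). For Etv5, Dusp6, Spry2 and Spry4 the interaction did not pass, with values of 0.11, 0.18, -0.11 and -0.05; in the kept libraries their log2 differences were 0.29, 0.19, 0.31 and 0.40. Of the 26 feedback genes the kept contrast called 9 higher (32.2% of all genes) and 3 lower (31.0%), and the interaction called 8 (40.9% of all genes).

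For matrix genes the interaction called 4 of 19 (40.9% of all genes), 2 in each direction, and the kept median was 0.32. Fn1 differed by 1.75 in the left-out and 1.62 in the kept libraries (interaction 0.15). The imprinted gene Igf2 differed by 1.65 and 1.09 (interaction 0.58). Other genes named above did not repeat in this way. Col3a1 differed by 2.25 and 0.12 (interaction 2.14), and Lum by 2.06 and -0.35 (interaction 2.43). Col14a1, which is not among the 19, differed by 2.33 and -0.38 (interaction 2.73). Among these genes the interaction passed only for Col14a1 (adjusted p 0.0432 in edgeR's quasi-likelihood test). The mitochondrially encoded genes were lower with FGF1 in 15 of 15 in the kept libraries, with a median of -1.75, and the interaction called 15 of 15. The glycolysis list had a kept median of 1.08, and the interaction called 12 of 26, where it called 40.9% of all genes. The left-out median of this list was -0.36, or -0.04 without BSA replicate 1. The mitochondrial share and the GC slope given above also differ between the kept libraries with and without FGF1, and Y-linked genes and Meg3 between the 2 sets. The part of those traits in these differences was not tested.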

How the data were processed

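RNA-seq of 23 libraries was used, of which 5 are described and 17 come from day 32. Per the submitters' processing notes, the authors used Trimmomatic 0.36, kallisto 0.45.0 and edgeR with genome build GRCm38.p6. The deposited gene table holds estimated counts, which need not be whole, for 52143 genes; they were rounded here. The deposited normalized table holds a signal on a CPM-like scale and served only to find which 18 libraries the authors kept. Gene names and GRCm38 coordinates come from its annotation columns. The transcript table of estimated counts, also from the authors, was used only to check column totals.

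Genes passing edgeR's filterByExpr were scaled by TMM and tested with the robust quasi-likelihood test (edgeR 4.0.16, R 4.3.3), FGF1 against none over the 5 libraries, with Benjamini-Hochberg adjustment over all genes tested and a threshold of 0.05. The 95% intervals use the standard error that the F statistic implies and are approximate. The kept contrast and the interaction come from 1 fit of the 17 day 32 libraries. GC content is from GENCODE M21 transcripts. The test was checked on simulated data. Depth was 10410656 to 11888224 counts a library.

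Alternatives were RLE scaling, 2 other filters, DESeq2 1.42.0, limma 3.58.1 voom, medium as a term, each library left out, shared spread, thinned counts, no mitochondrial genes and a GC offset. Named genes were up to 12 called genes per direction, filled up to 6 by the smallest p among genes with non-overlapping groups, an average log2 CPM of 1 or more and a named symbol; all members of both FGF lists; up to 4 per other list by smallest p; Y-linked and Dlk1-Meg3 genes; and 6 by the interaction. Further list members are named as examples. The members and the 36 gene lists were chosen with earlier results of these data known. Genes with a second copy on a patch scaffold share counts with it; Dlk1 and Rian are uncertain for this reason.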

Additional observations from a re-analysis of the deposited data

Results flagged for a closer look

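The FGF1 difference of the left-out libraries departed from that of the kept day 32 libraries for 7968 genes by a test of the interaction. The genes with the smallest interaction p are given here as log2 values, left-out minus kept difference. Hist2h3c1, a histone H3 gene with near-identical copies among which counts can be split, had a fitted value of 9.78, which depends on the prior count and is no bound, since it was at 0 in every kept library with FGF1. Kctd12, a subunit of GABA-B receptors, had 2.88. The FGF1 difference, not the level, was lower in the left-out libraries for Plxna3, a semaphorin receptor, at -3.59, and Pcp2, a bipolar and Purkinje cell gene, at -3.37. The same held for Leng8 at -3.24 and Sipa1l3 at -2.15. Depth and GC slope differ between the kept libraries with and without FGF1, and Y-linked genes and Meg3 between the left-out and the kept libraries; their part in these values was not tested.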

How the results depend on the processing

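Among the 5 left-out libraries the count of called genes stayed at 0 with RLE scaling, a filter of 1 CPM, limma voom, shared spread, no mitochondrial genes, thinned counts and a GC offset. It was 23 with no filter on low counts, 11 with DESeq2, 13 with medium as a term, 2 with all 23 libraries, and 0 to 5 when 1 library was left out (5 without LA with FGF1, 1 without BSA replicate 1, which was Col3a1). With LA with FGF1 or BSA with FGF1 left out, the lone FGF1 library is assumed to vary like the others. The interaction called 4547 to 8529 genes when 1 left-out library was omitted, with 4547 without LA with FGF1, and 3243 with the GC offset. The kept contrast called 7761 genes with the GC offset. The causes were not tested. The shares of genes with opposite direction, whose alternatives were chosen after seeing the data, ran from 42.69% to 78.52% and from 47.58% to 75.94% with 1 library left out, the lowest of each without BSA replicate 1. Of 190 named genes 176 had a value under all 16 alternatives, and 142 of these kept their sign in each; of the other 14, 13 kept it where they had a value. No paired analysis was possible because the FGF1 libraries are replicate 3 and the others replicate 1, so no replicate number is shared. The fit with medium as a term, given above, compares BSA with BSA and LA with LA. Only the departure of these differences from each other gives a gene's own spread there. Depth and the 2 against 3 libraries limit the precision, with a median half-width of the 95% interval of 0.89 on the log2 scale.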
